A study of Homo sapiens with 12 samples.

Results

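The genes described are the regulators and receptors of complement on the cell surface, CD46, CD55, CD59, CR1 and CR2, in Raji, an established line of CD20-bearing B cells from a human Burkitt lymphoma. They were chosen by symbol, as every probe that the array annotation gives to one of these 5 names. The annotation gave 10 probes to 4 of the 5 genes, among 20046 genes with a probe and 48105 probes with complete values. CD46 has no probe in the annotation used here and was not analysed. CD55 has 1 probe, CD59 has 2, CR2 has 3 and CR1 has 4. A filter on dim probes (detection p-value under 0.05 on at least 2 arrays) left 6 of the 10 probes, among 27789 probes tested.

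Complement is a cascade of plasma proteins that coats a cell with fragments of C3 and ends in a pore through its membrane, and anti-CD20 antibodies such as rituximab can start it. CD55 takes apart the enzymes that cleave C3 and C5, CD46 helps to inactivate deposited C3b and C4b, and CD59 stops the last step of pore assembly. CR1, the receptor for C3b and C4b, is best known from red cells and also has regulatory activity. CR2 (CD21), the receptor for the C3d fragment, is a B cell protein that signals in a complex with CD81 and is the entry receptor of Epstein-Barr virus. CD55 and CD59 are held in the membrane by a glycosylphosphatidylinositol (GPI) anchor.

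The promoters of the 3 genes detected on every array are shown because the hairpins were directed against MBD2, a protein that binds methylated CpG sites, and CREM, a factor of the family that binds the cAMP response element. Each window holds the 250 bases before and the 50 after a transcription start (RefSeq, GRCh38.p14), read 5′ to 3′ on the strand of the gene, with CpG sites in capitals. CR2 lies at chr1:207454078-207454377 on the plus strand, CD55 at chr1:207321428-207321727 on the plus strand, and the CD59 window shown, that of the most upstream of its 4 starts, lies at chr11:33736430-33736729 on the minus strand.
CR2: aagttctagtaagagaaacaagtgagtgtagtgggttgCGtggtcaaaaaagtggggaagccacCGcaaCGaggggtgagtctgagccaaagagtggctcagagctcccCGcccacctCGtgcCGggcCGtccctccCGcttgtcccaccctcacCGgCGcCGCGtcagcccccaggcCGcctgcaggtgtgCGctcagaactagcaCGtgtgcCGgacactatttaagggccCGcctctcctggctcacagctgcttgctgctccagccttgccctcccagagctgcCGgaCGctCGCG
CD55: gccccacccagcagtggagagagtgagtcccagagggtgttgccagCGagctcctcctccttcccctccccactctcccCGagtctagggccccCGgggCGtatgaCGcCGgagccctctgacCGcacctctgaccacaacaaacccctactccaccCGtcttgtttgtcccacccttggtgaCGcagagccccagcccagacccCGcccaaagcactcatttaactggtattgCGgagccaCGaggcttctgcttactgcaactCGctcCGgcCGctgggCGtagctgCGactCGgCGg
CD59: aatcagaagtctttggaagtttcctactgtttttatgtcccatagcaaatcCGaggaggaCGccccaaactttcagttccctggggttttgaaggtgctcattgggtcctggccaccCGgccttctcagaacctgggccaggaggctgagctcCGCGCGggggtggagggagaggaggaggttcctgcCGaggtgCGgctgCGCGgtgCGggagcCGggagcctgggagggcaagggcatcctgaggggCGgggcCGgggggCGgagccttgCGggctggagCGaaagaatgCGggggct
CR2 had 21 CpG sites in this window, CD55 had 19 and this CD59 window had 18, against a median of 14 over 35116 promoter windows. The other CD59 windows had 22, 1 and 1. The core of the cAMP response element, TGACG, searched on both strands (CGTCA on the other), occurred once in the CR2 window and at 2 places in the CD55 window, and none was found in the 4 CD59 windows. At least 1 such core was present in 24.6% of all windows. The full palindrome TGACGTCA, in which the core on one strand overlaps that on the other, was found in 1.85% of all windows and in none of those of CR2, CD55 and CD59. The arrays measured no methylation or binding, so these counts describe the sequence alone. The annotation places CD55, CR2, CR1 and CD46 in that order on chromosome 1, and CD59 on chromosome 11.

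The RNA of cells that had received a short hairpin RNA (shRNA) was hybridised to 12 Illumina BeadChip arrays, after 48 h in puromycin and on day 3 after transduction. Their targets were MS4A1, the CD20 gene (shMS4A1, 3 arrays, hairpins A, B and C), CREM (shCREM, 2 arrays, hairpins A and B) and MBD2 (shMBD2, 2 arrays each of hairpins A and C), and a hairpin with no target (shNTC, 3 arrays) served as control. By their names the arrays form 2 sets of 6. Set 1, whose labels carry no replicate number, holds shMS4A1, shCREM and 1 shNTC array, called replicate 3 here. Set 2, whose labels carry a number, holds shMBD2 and shNTC replicates 1 and 2. Knockdowns were set against shNTC of the same set, so shMS4A1 and shCREM share 1 control array. The labels do not say whether arrays of a group came from separate cultures. The p-values therefore measure only the spread between these samples, which may be technical. In set 1 each array of a knockdown has a different hairpin, so its spread includes differences between hairpins. In set 2 the spread is between arrays of the same hairpin. The fit pools these unlike spreads, and the 1 control array of set 1 adds none. Precision is limited by the few arrays in a group. These arrays measure RNA, and neither protein nor lysis by complement was measured.

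Between 18652 and 20483 probes were detected on an array, the fewest on shNTC replicate 1. Markers of the B cell and germinal centre lineage were detected on all 12 arrays for 10 of 11 genes with a probe (PAX5 on 1 array). None of 8 T and NK cell markers, 7 myeloid, 5 erythroid or 5 follicular dendritic cell markers was detected on all arrays, although CD14 was detected on 10, and CD2 and HBB on 8 each. MBD2 fell by 1.77 ± 0.24 log2 (SE, ILMN_1750395, limma adjusted p = 0.000892, lower on 4 of 4 arrays). MS4A1 fell by 1.93 ± 0.31 log2 under its own hairpins at ILMN_2401714 (limma adjusted p = 0.0123, lower on 3 of 3 arrays). Its other tested probes missed the threshold, at -1.17 log2 for ILMN_1776939 (limma adjusted p = 0.273) and -0.37 for ILMN_1697830 (0.999), which was detected on 3 arrays. The fall at ILMN_2401714 lost its call without hairpin B (limma adjusted p = 0.0628) or C (0.0528), within set 1 alone (0.0726) and with the controls of both sets pooled (-0.87 log2, 0.201). It was measured against 1 control array at 8.06 log2, while the set 2 controls stood at 6.64 and 6.29 and the shMS4A1 arrays at 6.16, 6.03 and 6.20. The contrast of shCREM with shMS4A1 uses no control array. MS4A1 was higher under shCREM there by 2.57 ± 0.24 log2 at ILMN_2401714 (limma adjusted p = 1.62e-05) and 2.04 ± 0.25 at ILMN_1776939 (0.000199). ILMN_1697830 had 0.01 (0.994), and any effect of shCREM on MS4A1 is included. Under shMBD2 MS4A1 was higher at ILMN_1776939 (0.99 ± 0.24 log2, limma adjusted p = 0.037). ILMN_2401714 (0.52 ± 0.23, 0.285) and ILMN_1697830 (-0.17, 0.749) did not pass. CREM was undetected on both shCREM arrays and detected on 4 of 12 arrays in all, with a difference of -0.74 ± 0.30 log2 that missed the threshold (limma adjusted p = 0.57).

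None of the 6 tested probes of CD55, CD59, CR1 and CR2 passed in any comparison of a knockdown with its control. Under shMS4A1 0 of 6 passed and 2 had an unadjusted limma p under 0.05, both of CR2, where 0.13% of all 27789 probes passed and 5.8% had an unadjusted p under 0.05. Under shCREM 0 of 6 passed and 2 had an unadjusted p under 0.05, 1 of CR2 and 1 of CD59, with 0.0108% of all probes past the test and 7.43% with an unadjusted p under 0.05. Under shMBD2 0 of 6 passed and 0 had an unadjusted p under 0.05, although 2.09% of all probes passed there and 14.8% had an unadjusted p under 0.05. In the direct contrast of shCREM with shMS4A1 0 of 6 passed and 1, of CD59, had an unadjusted p under 0.05, with 4.09% of all probes past the test and 16.3% with an unadjusted p under 0.05. Between the MBD2 hairpins A and C 0 of 6 and 0% of all probes passed, and 0 of 6 and 2.62% of all probes (727 of 27789) had an unadjusted limma p under 0.05. The median over the 6 probes was -0.44 log2 under shMS4A1, -0.29 under shCREM and -0.31 under shMBD2, where the median over all probes was 0.02 log2 each time. CR2 supplies 3 of the 6 probes behind these medians, so they are not independent of each other. The middle values under shMS4A1 were -0.51 log2 (CR2 at ILMN_1727753) and -0.37 (CR1 at ILMN_2388112). Both are probes near background that were undetected on all 3 shMS4A1 arrays. Under shCREM the middle values were -0.54 (CR2 at ILMN_1684724) and -0.05 (CR1 at ILMN_2388112). The medians under shMS4A1 and shCREM also rest on the same 1 control array.

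**Figure D1:**
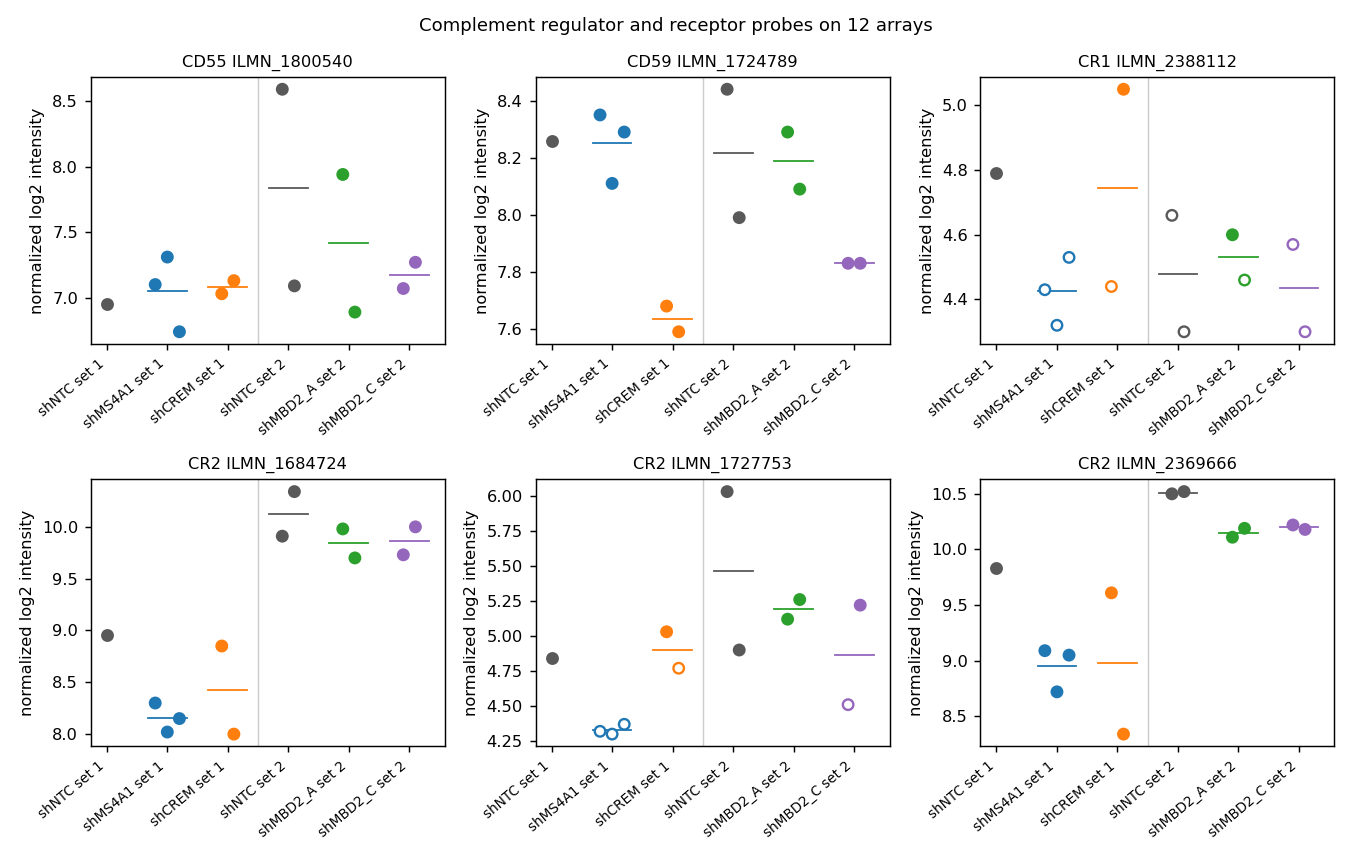
Normalized log2 intensity (y axis) of the 6 tested probes on the 12 arrays, by hairpin target and naming set (x axis), with a bar at the mean of each group of 2 or 3 arrays. Filled points were detected and open points were not, and the y axes differ between panels. CR2 at ILMN_1684724 and ILMN_2369666 was higher on all 6 arrays of set 2 than on all 6 of set 1. How many of all probes separate the sets in this way was not counted. CD55 stood at 8.59 on shNTC replicate 1.

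CR2, the C3d receptor, was detected on all 12 arrays at ILMN_2369666 and ILMN_1684724. At ILMN_2369666 the control of set 1 stood at 9.83 log2, the shMS4A1 arrays at 9.09, 8.72 and 9.05 for hairpins A, B and C, and the shCREM arrays at 9.61 and 8.34 for hairpins A and B. In set 2 the shNTC arrays stood at 10.50 and 10.52, the shMBD2_A arrays at 10.11 and 10.19, and the shMBD2_C arrays at 10.22 and 10.18. All 9 knockdown arrays were below every control array of their own set at this probe, but the 5 of set 1 share 1 control array. None of these differences passed, and how many of all probes separate in this way was not counted. The shCREM arrays lay far apart. At ILMN_1684724 the set 1 values were 8.96 for shNTC, 8.30, 8.02 and 8.15 for shMS4A1, and 8.85 and 8.0 for shCREM. In set 2 they were 9.91 and 10.34 for shNTC, 9.98 and 9.70 for shMBD2_A, and 9.73 and 9.996 for shMBD2_C. Here the shMBD2 and shNTC arrays of set 2 overlapped, while every knockdown array of set 1 was below its control.

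The difference of CR2 under shMS4A1 was -0.88 ± 0.31 log2 at ILMN_2369666 (95% confidence interval -1.53 to -0.23, lower on 3 of 3 arrays, n = 3 against 1, limma adjusted p = 0.585). At ILMN_1684724 it was -0.81 ± 0.28 log2 (interval -1.39 to -0.23, limma adjusted p = 0.549, 3 of 3). Under shCREM it was -0.86 ± 0.33 log2 at ILMN_2369666 (interval -1.55 to -0.17, n = 2 against 1, limma adjusted p = 0.536, 2 of 2) and -0.54 ± 0.29 at ILMN_1684724 (limma adjusted p = 0.742, 2 of 2). The unadjusted intervals leave out 0 for both probes under shMS4A1 and for ILMN_2369666 under shCREM, and none of these values passed over all probes. The shCREM value was -1.50 log2 without hairpin A (limma adjusted p = 0.00875) and -0.23 without hairpin B (0.848), so hairpin B carried most of it. A fit with 1 shCREM array holds no spread between the hairpins and assumes that the lone array varies like the other groups. Under shMBD2 CR2 had a value of -0.34 ± 0.23 log2 at ILMN_2369666 (interval -0.82 to 0.15, n = 4 against 2, limma adjusted p = 0.562, 4 of 4) and -0.28 ± 0.21 at ILMN_1684724 (interval -0.71 to 0.16, limma adjusted p = 0.603, 4 of 4). These unadjusted intervals hold no change as well as a fall of CR2 as large as their lower ends. The CR2 probe near background, ILMN_1727753, had a wider interval under shMBD2 (-1.03 to 0.16). The shMBD2 effect minus the shMS4A1 effect was 0.54 ± 0.39 log2 at ILMN_2369666 (limma adjusted p = 0.736) and 0.53 ± 0.35 at ILMN_1684724 (0.698), so the effects were not shown to differ. Of all probes 0.151% passed that test, and 0 of 6 member probes did. The same test against the shCREM effect passed for 0.41% of all probes and 0 of 6 members. Between shCREM and shMS4A1 CR2 had values of 0.02 ± 0.24 and 0.27 ± 0.22 log2 at these probes, which did not pass (limma adjusted p = 0.985 and 0.619).

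The third CR2 probe, ILMN_1727753, was near background and was detected on 7 of 12 arrays. It was undetected on all 3 shMS4A1 arrays (4.32, 4.30 and 4.37 log2) and detected on shNTC replicate 3 (4.84). The mean levels on these arrays lay at least 1.27-fold apart, which does not bound the difference between the groups. That difference was -0.51 ± 0.38 log2 under shMS4A1 (interval -1.31 to 0.28, limma adjusted p = 0.999), so a fall was not shown. A fold written as "at least" sets the mean of the bright side against a mean over the arrays where the probe was undetected. Each such array enters with the probe's own level or the lowest level detected on that array, whichever is higher. On the shCREM arrays it stood at 5.03 (hairpin A, detected) and 4.77 (hairpin B, undetected), and their difference from shMS4A1 missed the threshold (limma adjusted p = 0.367). In set 2 it ran from 4.51 to 5.26 under shMBD2 and stood at 6.03 and 4.90 on shNTC replicates 1 and 2, and the value for shMBD2 was -0.44 ± 0.28 log2 (limma adjusted p = 0.524). Without shNTC replicate 1 that value turned to 0.12, so its direction rests on that array.

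The CR2 level of the controls differed between the naming sets at 1 probe, in a test with 1 array on the set 1 side, which is assumed to vary like the other groups. At ILMN_1684724 shNTC was 1.16 ± 0.29 log2 higher in set 2 than in set 1 (2.24-fold, interval 0.54 to 1.78, n = 2 against 1, limma adjusted p = 0.0304), where 1.72% of all probes passed as higher in set 2; 1 of the 6 member probes did. The difference at ILMN_2369666, 0.68 ± 0.33 log2, missed the threshold (limma adjusted p = 0.295). The call at ILMN_1684724 was lost without shNTC replicate 2 (0.95 log2, limma adjusted p = 0.0947) and kept without replicate 1 (1.37 log2, 0.0451), and it was also lost with median scaling (0.81 log2, 0.118) and with no intensity trend (0.094). With the control arrays of both sets pooled and no term for the set, CR2 passed as lower at both bright probes under shMS4A1 (-1.58 log2 at ILMN_1684724 and -1.33 at ILMN_2369666, limma adjusted p = 0.0126 and 0.0216) and under shCREM (-1.31 at each, limma adjusted p = 0.042 and 0.0319). In that fit the higher CR2 level of the set 2 controls enters the comparison.

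CR1, the receptor for C3b and C4b, was at or near background. ILMN_1731118 and ILMN_1742601 were detected on 0 of 12 arrays and ILMN_1767193 on 1, shNTC replicate 1 (4.93 log2). ILMN_2388112 was detected on 3 of 12, at 5.05 on shCREM hairpin B, 4.79 on shNTC replicate 3 and 4.60 on shMBD2_A replicate 1, and ran from 4.30 to 4.66 on the other arrays. These detections fell in 3 different groups and on 1 array of each. ILMN_2388112 was undetected on all 3 shMS4A1 arrays, and its mean level there lay at least 1.22-fold below that on shNTC replicate 3. The difference between the groups was -0.37 ± 0.27 log2 (interval -0.94 to 0.20, limma adjusted p = 0.999), so a fall was not shown. Under shCREM its value was -0.05 ± 0.29 log2 (limma adjusted p = 0.995). Under shMBD2 no fold is given, since both controls were undetected (limma adjusted p = 0.998).

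CD55, which breaks up the C3 and C5 cleaving enzymes, was detected on all 12 arrays at ILMN_1800540. In set 1 its level was 6.95 log2 on shNTC, 7.10, 7.31 and 6.74 on shMS4A1, and 7.03 and 7.13 on shCREM. In set 2 it was 8.59 and 7.09 on shNTC, 7.94 and 6.89 on shMBD2_A, and 7.07 and 7.27 on shMBD2_C. The set 1 arrays lay close together, and shNTC replicate 1 and shMBD2_A replicate 1 stood above all others. The value was 0.10 ± 0.45 log2 under shMS4A1 (interval -0.84 to 1.04, limma adjusted p = 0.999, higher on 2 of 3 arrays) and 0.13 ± 0.48 under shCREM (interval -0.87 to 1.12, limma adjusted p = 0.991, 2 of 2). Under shMBD2 it was -0.55 ± 0.34 log2 (interval -1.26 to 0.16, limma adjusted p = 0.495, lower on 3 of 4). Without shNTC replicate 1, the array with the fewest detected probes, the shMBD2 value was 0.20 log2 (limma adjusted p = 0.918). Without shNTC replicate 2 it was -1.30 log2 and passed (limma adjusted p = 0.033). The direction thus rests on shNTC replicate 1, and the part of its lower detection in the result was not tested.

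**Figure D2:**
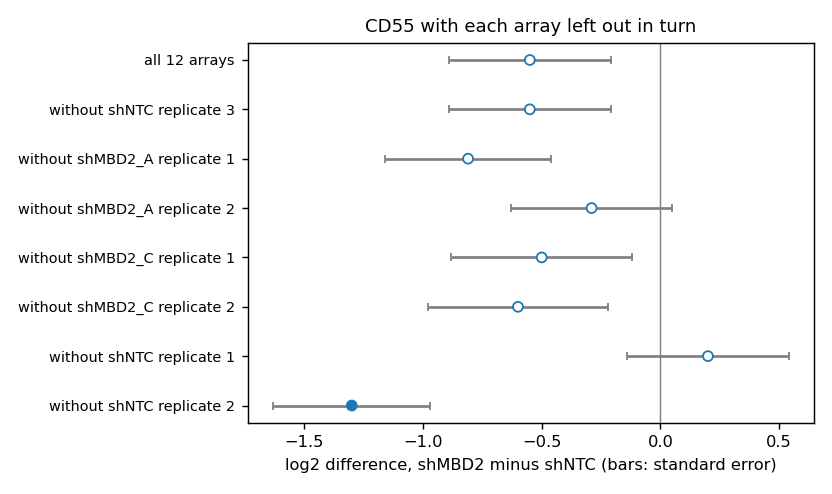
Log2 difference of CD55 between shMBD2 and shNTC (x axis, with bars for the standard error) with all arrays and with each array left out in turn (y axis), where a filled point has a limma adjusted p under 0.05. The value ran from -1.30 without shNTC replicate 2 to 0.20 without shNTC replicate 1.

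CD59, the inhibitor of the membrane pore, was detected on all 12 arrays at ILMN_1724789 and on none at ILMN_2333687. At ILMN_1724789 the set 1 values were 8.26 log2 on shNTC, 8.35, 8.11 and 8.29 on shMS4A1, and 7.68 and 7.59 on shCREM. In set 2 they were 8.44 and 7.99 on shNTC, 8.29 and 8.09 on shMBD2_A, and 7.83 and 7.83 on shMBD2_C. The shCREM arrays were the lowest of all 12 and did not overlap the shMS4A1 arrays. The shMBD2_C arrays lay below both controls of their set, a difference that missed the threshold (limma adjusted p = 0.488). The share of all probes with such separations was not counted. CD59 had a value of -0.62 ± 0.19 log2 under shCREM against shMS4A1 (interval -1.03 to -0.21, n = 2 against 3, lower on both shCREM arrays) and missed the threshold (limma adjusted p = 0.088). Over its alternatives this value ran from -0.71 to -0.48 and limma adjusted p from 0.0444 to 0.217, with a pass under median scaling. Against shNTC the shCREM value was -0.63 ± 0.26 log2 (interval -1.18 to -0.08, n = 2 against 1, limma adjusted p = 0.592, 2 of 2). Under shMS4A1 CD59 had a value of -0.01 ± 0.25 log2 (interval -0.53 to 0.50, limma adjusted p = 0.999), and under shMBD2 of -0.21 ± 0.18 (interval -0.59 to 0.18, limma adjusted p = 0.68, lower on 3 of 4). The difference between MBD2 hairpins A and C was 0.36 ± 0.21 log2 (limma adjusted p = 1). Without shNTC replicate 1 the shMBD2 value was 0.02.

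**Figure D3:**
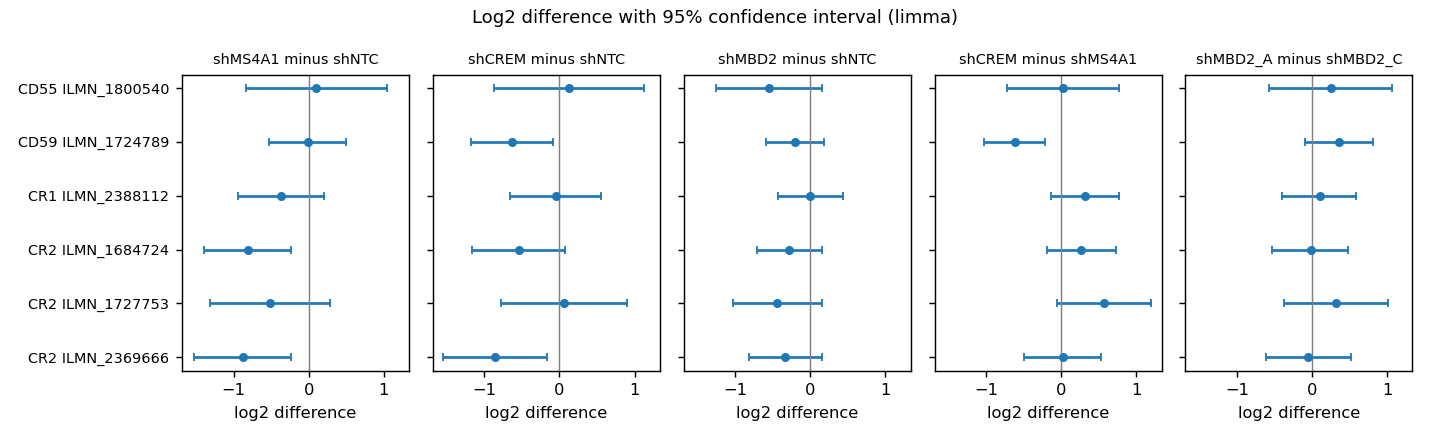
Log2 difference (x axis) with its 95% confidence interval for each of the 6 tested probes (y axis) in 5 comparisons (panels), from the limma fit over all probes. The intervals are not adjusted for the number of probes tested. They leave out 0 for CR2 at ILMN_1684724 and ILMN_2369666 under shMS4A1, CR2 at ILMN_2369666 and CD59 under shCREM, and CD59 between shCREM and shMS4A1, and no value passed after adjustment.

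Of 52 other complement genes with a probe, 4 were detected on all 12 arrays, 29 on some and 19 on none. Of 26 complement components with a probe, C5 alone was detected on all 12 arrays and 9 were detected on none. Of 16 other regulators 0 were detected on all arrays and 8 on none, CFI, which cleaves C3b with the help of CD46 or CR1, reaching 11 arrays. Of 10 other receptors 3 were detected on all arrays, ITGB2, the shared chain of complement receptors 3 and 4, C1QBP and CALR, while ITGAM, the partner chain that makes complement receptor 3, was detected on none. None of the 12 components, 6 regulators and 6 receptors that could be tested passed in any of the 5 comparisons, in which between 0% and 4.09% of all probes passed. At those shares a list of this size would hold few calls or none. The value with the smallest unadjusted p among the components in the contrast of shCREM with shMS4A1 was C5, at 0.87 ± 0.30 log2 (limma adjusted p = 0.122).

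The partners of CR2 with a probe in the annotation used here were CD81 and IFITM1. CD81, a tetraspanin of the CR2 complex, stood at 12.97 and 12.98 log2 on the shCREM arrays, 13.38, 13.35 and 13.38 on shMS4A1 and 13.31 on shNTC of set 1. It was lower under shCREM than under shMS4A1 by a small amount (-0.40 ± 0.10 log2, 1.32-fold, on 2 of 2 arrays, limma adjusted p = 0.033). That call was lost when any 1 of the 5 arrays compared was left out, with limma adjusted p from 0.0835 to 0.139 and values from -0.41 to -0.39. Against shNTC the shCREM difference of -0.34 ± 0.14 log2 missed the threshold (limma adjusted p = 0.578). IFITM1 was detected on 4 arrays and did not pass in any comparison.

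Genes that make and attach the GPI anchor, on which CD55 and CD59 depend, were broadly detected, 26 of 29 on all 12 arrays. Of 28 tested, 0 passed under shMS4A1 and 0 under shCREM, with medians of -0.04 and 0.03 log2, where 0.13% and 0.0108% of all probes passed. Under shMBD2 1 of 28 rose and 0 fell, with a median of 0.16 log2 against 0.02 over all probes, of which 0.986% rose. The gene that rose was MPPE1, which remodels the anchor during export (0.72 ± 0.17 log2, 1.64-fold, higher on 4 of 4 arrays, limma adjusted p = 0.0362). Its level was 8.18, 8.39, 8.28 and 8.40 on the shMBD2 arrays and 7.67 and 7.51 on the controls, and the call was lost when any 1 of those 6 arrays was left out (limma adjusted p from 0.072 to 0.136). Between shCREM and shMS4A1 1 of 28 was higher and 0 lower, where 1.88% of all probes were higher and 2.21% lower. PIGB, a mannosyltransferase of anchor synthesis, was higher under shCREM (1.00 ± 0.21 log2, 2.01-fold, on 2 of 2 arrays, limma adjusted p = 0.00899) and kept its call under every alternative, each array left out included (highest limma adjusted p 0.0463). Its level was 8.40 and 8.43 on shCREM, 7.33, 7.60 and 7.30 on shMS4A1 and 7.78 on shNTC of set 1. Against that control neither the shCREM value (0.64 ± 0.28 log2, limma adjusted p = 0.619) nor the shMS4A1 value (-0.37 ± 0.26, limma adjusted p = 0.999) passed.

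**Figure D4:**
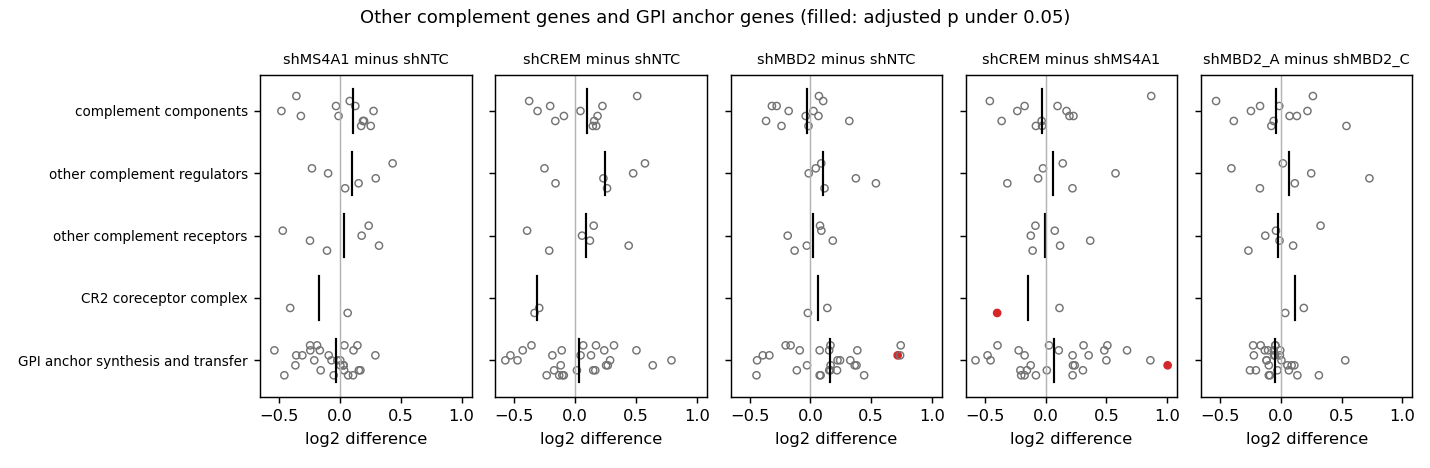
Log2 difference (x axis) of the tested genes of 5 lists (y axis) in 5 comparisons (panels), 1 point per gene and a black line at the list median. Red filled points had a limma adjusted p under 0.05: MPPE1 under shMBD2, and CD81 and PIGB between shCREM and shMS4A1.

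After the mean of each naming set was subtracted, the bright CR2 probes had a Pearson r of 0.87 with each other over the 12 arrays, CD55 and CD59 had 0.41, and CR2 at ILMN_2369666 had -0.03 with CD55 and 0.29 with CD59. The highest coefficient between different members was 0.59, of CD55 with the dim CR2 probe ILMN_1727753. These arrays share controls and hairpins, so the coefficients describe the 12 arrays only. By the same measure the probes of other genes most like CR2 at ILMN_2369666 were SASH3 (0.946), MPC1 (0.945) and RPGR (0.93), out of 13774 candidates. Most like CD55 were ZBTB25 (0.92), VAMP4 (0.902) and UFM1 (0.884), and most like CD59 were HECTD2 (0.902), COTL1 (0.884) and INTS15 (0.879). Each is the highest of many coefficients over few arrays.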

How the data were processed

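Total RNA of 12 Raji samples was measured on Illumina BeadChips. The deposited raw table holds an intensity on a linear scale and, per the file headers, a detection p-value for every probe and array. The authors also deposited processed intensities, whose distributions show normalization within each naming set. The raw and processed tables name probes differently and were joined by each probe's profile over the 12 arrays (48105 unique matches, lowest rank correlation 0.999902). The probe annotation of the series supplied the symbols. The image-reading software was not given in the sources used here.

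Raw intensities were corrected for background and quantile-normalized by the neqc function (limma 3.58.1, R 4.3.3, offset 16) and are log2 values; the authors' processed intensities served as an alternative. Probes with a detection p-value under 0.05 on at least 2 arrays were kept. limma's linear model with an intensity trend was fitted to all arrays with the naming set as a block, two-sided, with Benjamini-Hochberg adjustment over 27789 probes and a threshold of 0.05. Every probe was tested, so members with several probes have several values. Errors after ± are standard errors. For list genes the brightest probe was used. Named genes are all members, list genes that passed or else had the smallest p-values, the targeted genes, and the 3 probes most like each detected member. The fit was tested on simulated data for the shMBD2 comparison only, with changes of 2 or 3 log2. The shMS4A1 and shCREM comparisons and smaller changes were not simulated. Members and lists were chosen with earlier results of these data known.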

Additional observations from a re-analysis of the deposited data

How the results depend on the processing

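Values were recomputed under 10 other settings and with each array left out. In the fit to all arrays the count of member probes called was 0 in every comparison with a knockdown. That count became 1 between shCREM and shMS4A1 under median scaling (CD59). With no set block it became 2 under shMS4A1 and 2 under shCREM (CR2). With 1 array left out it ran from 0 to 1 between shCREM and shMS4A1 (CR2 without shCREM hairpin B), from 0 to 1 under shCREM (CR2 without hairpin A) and from 0 to 1 under shMBD2 (CD55 without shNTC replicate 2). It was 0 each time under shMS4A1 and between MBD2 hairpins. The control array of set 1 could not be left out of its own comparisons, since no control would remain.

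The counts over all probes moved more. Under shMS4A1 36 became 56 with median scaling, 155 with no filter, 298 with no set block, 6 within set 1 and 16 with no intensity trend, and 10 to 47 with 1 array left out. Under shCREM 3 became 8 with the authors' processed values, 26 with median scaling, 10 with offset 50, 72 with no filter, 1 with a filter of 6 arrays, 1 with 1 probe a gene, 363 with no set block and 1 within set 1, and 11 to 176 with 1 array left out. Under shMBD2 582 became 376 with no filter, 76 with no set block and 293 with no intensity trend, and 62 to 1593 with 1 array left out (62 without shNTC replicate 1, 1593 without replicate 2). Between shCREM and shMS4A1 1136 became 448 with no set block, 499 within set 1 and 602 with no intensity trend, and 545 to 1373 with 1 array left out. The cause was not tested.

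No member probe was called in any comparison with a knockdown in the fit to all arrays. Every value below that changed sign had therefore not passed in that fit. With no set block, which pools the controls of both sets, CD55 became -0.49 under shMS4A1 and -0.47 under shCREM, CD59 0.02 under shMS4A1, CR1 0.16 under shCREM and -0.10 under shMBD2, and CR2 -0.36 under shCREM (ILMN_1727753) and 0.11 under shMBD2 (ILMN_1684724). CR1 under shMBD2 was -0.05 with median scaling and 0 with offset 50, and -0.05 between MBD2 hairpins with median scaling. Between shCREM and shMS4A1 median scaling gave 0 for CD55 and -0.07 for CR2 at ILMN_2369666. CD59 under shMS4A1 was 0.01 with the authors' processed values. The shMBD2 effect minus the shMS4A1 effect was -0.04 for CR2 at ILMN_1727753 with offset 50.

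With 1 array left out, values between shCREM and shMS4A1 ran from -0.13 to 0.16 for CD55, from -0.16 to 0.70 for CR2 at ILMN_1684724 and from -0.62 to 0.65 at ILMN_2369666, the last with limma adjusted p = 0.0864 without hairpin A and 0.0447 without hairpin B. Under shCREM they ran from -0.36 to 0.26 for CR1 and from -0.07 to 0.19 for CR2 at ILMN_1727753, and under shMS4A1 from -0.03 to 0.25 for CD55 and from -0.06 to 0.06 for CD59. Under shMBD2 they ran from -1.30 to 0.20 for CD55, from -0.43 to 0.02 for CD59, from -0.18 to 0.18 for CR1 and from -1.0 to 0.12 for CR2 at ILMN_1727753. Between MBD2 hairpins they ran from -0.28 to 0.77 for CD55, from -0.04 to 0.23 for CR1, and for CR2 from -0.16 to 0.11 at ILMN_1684724 and from -0.03 to 0.68 at ILMN_1727753. The shMBD2 effect minus the shCREM effect ran from -1.43 to 0.08 for CD55, from -0.25 to 0.36 for CR1, and for CR2 from -0.16 to 0.69 at ILMN_1684724, -1.06 to 0.06 at ILMN_1727753 and -0.11 to 1.16 at ILMN_2369666. The shMBD2 effect minus the shMS4A1 effect ran from -1.40 to 0.10 for CD55, from -0.42 to 0.03 for CD59 and from -0.49 to 0.64 for CR2 at ILMN_1727753.

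The labels number the arrays of set 2 as 1 and 2, but do not say that a number marks a shared culture or day. Deviations of arrays with the same number correlated by -0.06, -0.01 and -0.03 over 27789 probes. Each coefficient rests on 1 difference between arrays 1 and 2 in each group. It cannot show whether a culture or day was shared, which stays unknown. With the replicate block 0 member probes were called in every comparison, MPPE1 lost its call (limma adjusted p = 0.0526), and CR2 at ILMN_1684724 was 1.09 log2 higher in the set 2 controls (0.0727). CD59 was then 0.06 between the controls, and -0.27 to 0.18 with 1 of the set 2 controls left out.

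The alternatives for the set difference of the controls, and for CD81, PIGB, MPPE1, MBD2 and MS4A1, were chosen after seeing the data. The call of CR2 between the sets was also lost with median scaling (0.81 log2, limma adjusted p = 0.118) and with no intensity trend (0.094). PIGB kept its call under every alternative (highest limma adjusted p 0.0463). CD81 (0.00551 to 0.257) and MPPE1 (0.0277 to 0.344) did not. CR1, the undetected probes of CD59 and ILMN_1727753 of CR2 are limited by background.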
